A study of Homo sapiens with 17 samples.

Results

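The genes of the proteasome were followed through 7 groups of PC3M cells, a metastatic human prostate cancer line. They were chosen by name alone, as every gene in both deposited tables whose symbol starts with PSMA to PSMG and a number, or is POMP. The rule found 52 of the 13088 genes that both tables list. Of these, 47 encode subunits of the proteasome, its activators, its inhibitor PSMF1 or its assembly factors. The other 5 are the antisense RNAs PSMA3-AS1, PSMB8-AS1, PSMD5-AS1 and PSMG3-AS1 and the recombination gene PSMC3IP, which share the name and not the complex, and they are left out of all counts of proteasome genes. A further antisense RNA, PSMD6-AS2, was listed in the MG132 table alone, at no more than 4.79 normalised counts. PSMB9 was the 1 proteasome gene that failed the filter on low values, with 0 to 3.88 normalised counts in the MG132 table and no more than 2.53 in the heat shock table. The 46 tested genes were 16 of the core (PSMA and PSMB), 6 ATPases (PSMC), 14 of the lid and base (PSMD), 4 activators (PSME), the inhibitor PSMF1 and 5 assembly factors (PSMG and POMP).

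The study concerned the heat shock factor HSF1 and the oxygenase JMJD6 in cells under protein stress. It comprised 17 RNA libraries of a kind that yields 1 tag at the 3' end of a transcript. The MG132 table held 4 groups of 2 libraries. These were cells with an siRNA against JMJD6 (siJMJD6) under the proteasome inhibitor MG132, HSF1 knockout cells (HSF1 KO, libraries A and B) under MG132, cells with a non-targeting siRNA (siNT) under MG132, and siNT cells in the solvent DMSO. MG132 was given at 2.5 µM for 4 hours, and no siRNA is named for the HSF1 KO libraries. The heat shock table held 3 groups of 3 libraries. These were siJMJD6 cells and siNT cells after heat shock, given as 1 hour at 42 °C and 2 hours of recovery, and siNT cells without stress (basal). Transfection with siRNA lasted 72 hours. The labels do not say whether A and B are separate clones. There is no analysis of siJMJD6 or HSF1 KO cells at rest here, and a response to stress cannot be told apart from a difference present before it.

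The 26S proteasome degrades proteins that carry ubiquitin chains. Its core is a barrel of alpha (PSMA) and beta (PSMB) rings, with the active sites on PSMB5 (chymotrypsin-like), PSMB6 (caspase-like) and PSMB7 (trypsin-like). MG132 blocks mainly the site on PSMB5. PSMB8, PSMB9 and PSMB10 replace these subunits in the immunoproteasome, which interferon induces. On the barrel sits a cap whose base holds the ATPases (PSMC), which unfold the substrate, and whose lid and base also hold the PSMD subunits, which bind and remove ubiquitin. PSME1 and PSME2 form the activator PA28αβ, PSME3 forms PA28γ and PSME4 is PA200, which can bind the barrel in place of the cap. PSMG1 to PSMG4 and POMP build the core, while PSMD5, PSMD9 and PSMD10 are chaperones of the base. These chaperones of the base are counted here with the lid and base, by name. When the proteasome is inhibited, the transcription factor NRF1 (gene NFE2L1) is known to raise proteasome genes in many cell types, a response often called bounce-back.

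The sequences just upstream of 4 genes are shown because these genes fell in siJMJD6 cells after heat shock, as described further on, and because NRF1 acts on such regions. They are the genes, among the 10 lower genes with the smallest adjusted p there, whose window of 250 bases before the RefSeq start holds at least 200 bases in a row outside any annotated exon. Sequences are from RefSeq (GRCh38.p14), run 5′ to 3′ on the strand of the gene, and end where the first exon annotated in GENCODE begins. They lie at chr19:38374321-38374535 (plus strand) for PSMD8, chr14:23035231-23035470 (minus strand) for PSMB5, chr17:39980557-39980796 (plus strand) for PSMD3 and chr1:151399323-151399533 (plus strand) for PSMB4. Capitals mark the NRF1 element (TGACNNNGC or TGAGNNNGC, either strand) in PSMD8, PSMB5 and PSMD3, and in PSMB4 an interferon-stimulated element (GAAA, then 2 bases of any kind, then GAAA, either strand).
PSMD8: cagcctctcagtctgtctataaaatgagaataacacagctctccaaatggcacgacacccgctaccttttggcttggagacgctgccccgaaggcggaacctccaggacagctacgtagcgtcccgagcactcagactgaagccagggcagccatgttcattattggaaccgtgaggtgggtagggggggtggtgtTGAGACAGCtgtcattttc
PSMB5: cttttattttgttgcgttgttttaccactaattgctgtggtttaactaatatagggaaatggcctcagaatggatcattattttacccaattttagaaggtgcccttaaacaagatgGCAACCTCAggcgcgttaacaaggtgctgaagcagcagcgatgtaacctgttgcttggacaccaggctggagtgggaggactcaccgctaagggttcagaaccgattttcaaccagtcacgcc
PSMD3: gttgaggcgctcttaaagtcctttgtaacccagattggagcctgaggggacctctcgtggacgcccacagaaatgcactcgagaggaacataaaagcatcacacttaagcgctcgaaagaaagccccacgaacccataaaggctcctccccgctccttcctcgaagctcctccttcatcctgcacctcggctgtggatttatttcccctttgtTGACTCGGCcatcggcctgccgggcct
PSMB4: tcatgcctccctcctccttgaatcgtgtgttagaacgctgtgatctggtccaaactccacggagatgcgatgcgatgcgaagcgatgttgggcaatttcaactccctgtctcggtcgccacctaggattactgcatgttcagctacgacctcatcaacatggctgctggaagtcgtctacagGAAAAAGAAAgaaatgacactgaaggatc

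Over the 41 of 47 proteasome genes that matched an entry, the NRF1 element was found in 17 windows (41.5%), beside 23.9% of the 35116 windows of the same length in the table. For each proteasome gene the window with the fewest bases in annotated exons was taken. The 35116 windows were taken without that choice, so the shares given here are not fully alike in kind. The interferon-stimulated element was found in 5 (12.2%, beside 3.02%), namely PSMA4, PSMB4, PSMB10, PSME2 and PSMG4. A heat shock element (GAANNTTC or TTCNNGAA, either strand) was found in 2 (4.88%, beside 11.6%), PSMD5 and PSMD6. A match describes letters only. PSMA7, PSMB1, PSMB6, PSMB7, PSMD4 and PSMG3 had no entry.

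Of 14085 genes listed for MG132 and 13616 for heat shock, 9778 and 9831 passed the filter. Libraries summed to 1505830 to 1819640 normalised counts, and the size of the steps between low values puts the reads behind them at about 0.937 M to 2.603 M. The median standard error (SE) of a proteasome gene's log2 fold change was 0.28 in the MG132 table, against 0.11 in the heat shock table. JMJD6 had 26.6 and 16.6 normalised counts in siJMJD6 MG132 libraries, against 167 and 129.8 in siNT MG132, and 7.66 to 14.6 in siJMJD6 cells after heat shock, against 209 to 253 in siNT cells. HSF1 had 285 and 175 in HSF1 KO cells, against 1687 and 1884 in siNT cells under MG132, though a tag at the 3' end does not check the deletion itself. Among markers of cell identity, KRT18, KRT19, EPCAM and VIM were present in every library, while KLK3, a marker of luminal prostate cells, was at or under 25.3 normalised counts in the heat shock table. The fibroblast list (COL1A1, COL1A2, DCN and LUM, of which the collagens were tested) summed to 110.0 to 157 in siJMJD6 cells after heat shock, against 264 to 307 in siNT cells, and to 33.1 to 55.9 in siJMJD6 MG132 libraries, against 109.7 to 246 in siNT MG132. In both comparisons COL1A2 was lower and COL1A1 higher, and LUM was at or under 13.7 in every library. DCN was listed in the heat shock table alone, at or under 9.04, so the MG132 sums leave it out. The part of these differences in the results was not tested. Since the labels do not describe replicates as separate cultures, every p below reflects the spread between libraries, possibly a technical one.

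Effects are log2 fold changes ± SE on the scale of log2(normalised count + 1), which understates the change of low genes. The words rose, fell and called are kept for genes with a Benjamini-Hochberg adjusted p under 0.05 in limma's test over all tested genes. In bulk RNA, fewer cells with a transcript and less transcript per cell cannot be told apart. The map of all effects shows where the calls lie.

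**Figure D1:**
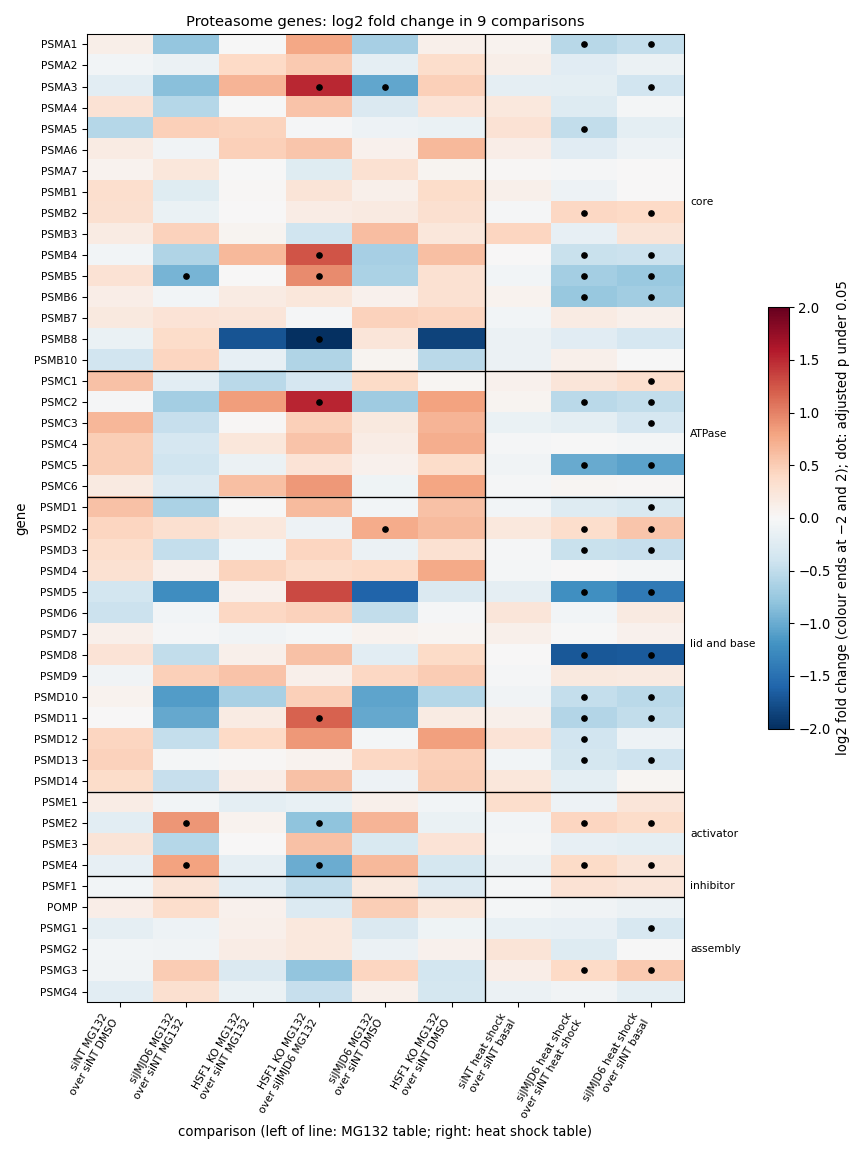
Log2 fold change of the 46 tested proteasome genes (rows, grouped by role) in 9 comparisons (columns), with a dot where adjusted p was under 0.05. Most dots lie in the 2 columns that set siJMJD6 cells after heat shock against siNT cells, with 19 and 22 called genes. In these columns 46.4% and 46.3% of all tested genes were called. MG132 alone and heat shock alone in siNT cells gave 0, where 0.266% and 4.09% of all tested genes were called.

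MG132 in siNT cells was compared with DMSO, the comparison that bears on bounce-back. By limma 0 of 46 proteasome genes were called, at a background of 0.205% of all tested genes called higher and 0.0614% lower (0.266% in either direction). At an unadjusted p under 0.05 there were 3 higher and 0 lower, where 2.74% and 2.91% of all genes lay. These were the ATPase genes PSMC3 and PSMC1 and, named after its value was seen, the base scaffold gene PSMD1 (0.58 ± 0.26). PSMC3 had 324 and 455 normalised counts in MG132 libraries, against 234 and 253 in DMSO libraries (0.66 ± 0.26, adjusted p = 0.745). PSMC1, which has 13 named pseudogenes that may share its reads, had 241 and 317 in MG132 libraries, against 173 and 195 in DMSO libraries (0.59 ± 0.26, adjusted p = 0.837). In both genes every MG132 library lay above every DMSO library.

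The roles differed in their medians under MG132, and no difference between roles was tested. The median log2 fold change was 0.49 over the 6 ATPases, 0.29 over the 14 lid and base genes, 0.12 over the 16 core genes, −0.0079 over the 4 activators and −0.078 over the 5 assembly factors, beside −0.0049 over all tested genes. Both MG132 libraries lay above both DMSO libraries in 14 of 46 proteasome genes (30.4%, beside 18.3% of all tested genes), and below in 1 (2.17%, beside 18.0%). Of 6 panel genes followed in every comparison, the chymotrypsin-like subunit PSMB5 had 0.29 ± 0.25, the ATPase PSMC4 0.49 ± 0.32 and the core chaperone POMP 0.14 ± 0.25. The lid subunit PSMD11 had 0.0023 ± 0.35, the alpha subunit PSMA3 −0.21 ± 0.27 and the activator PSME4 −0.16 ± 0.23. NFE2L1 itself had 122 and 139.97 normalised counts in MG132 libraries, against 114 and 118 in DMSO libraries (0.17 ± 0.25).

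HSF1 KO cells under MG132 were set against the same DMSO libraries of siNT cells. By limma 0 of 46 were called (background 0.368% higher, 0.562% lower and 0.931% in either direction), with 8 higher and 1 lower at an unadjusted p under 0.05 (6.31% and 6.35% of all genes). Both HSF1 KO libraries lay above both DMSO libraries in 22 of 46 genes (47.8%, beside 24.3% of all genes), among them 5 of 6 ATPases and 9 of 14 lid and base genes, and below in 5 (10.9%, beside 24.2%). The median was 0.29 over the 46 genes and 0.70 over the ATPases, beside −0.0063 over all tested genes. The ubiquitin receptor PSMD4 had 821 and 793 normalised counts in HSF1 KO MG132 libraries, against 484 and 470.2 in siNT DMSO libraries (0.76 ± 0.25, adjusted p = 0.197). The scaffold PSMD2 had 644 and 634 in HSF1 KO MG132 libraries, against 392 and 429.7 in siNT DMSO libraries (0.64 ± 0.22, adjusted p = 0.237). Among the panel genes PSMA3 had 0.47 ± 0.27, PSMB5 0.30 ± 0.25, PSMC4 0.72 ± 0.32, PSMD11 0.16 ± 0.35, PSME4 −0.35 ± 0.23 and POMP 0.22 ± 0.25. Genotype, drug and the labelled siRNA differ between these groups, and their effects cannot be told apart here.

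Under MG132, HSF1 KO and siNT cells were compared. The siNT cells were transfected, while no siRNA is named for HSF1 KO cells, and genotype and transfection cannot be told apart here. By limma 0 of 46 were called (background 0.276% higher, 1.00% lower and 1.28% in either direction), with 4 higher and 1 lower at an unadjusted p under 0.05 (5.88% and 6.93% of all genes). Both HSF1 KO libraries lay above both siNT libraries in 14 genes (30.4%, beside 23.7% of all genes) and below in 7 (15.2%, beside 21.7%). The base chaperone PSMD9 had 589.7 and 559 normalised counts in HSF1 KO libraries, against 396 and 374 in siNT libraries (0.58 ± 0.23, adjusted p = 0.296). The immunoproteasome subunit PSMB8 had 2.58 and 22.7 in the HSF1 KO libraries (A, then B), against 28.8 and 30.3 in siNT libraries (−1.73 ± 0.69, adjusted p = 0.303). Library A decides that value, since PSMB8 had −0.37 without A and −3.09 without B (adjusted p = 0.922 and 0.0397). Each such fit of the MG132 table leaves a group with 1 library, which is then assumed to vary like the other groups. PSMA3 had 0.68 ± 0.27, PSMC4 0.23 ± 0.32, PSMD11 0.16 ± 0.35, POMP 0.087 ± 0.25, PSMB5 0.014 ± 0.25 and PSME4 −0.18 ± 0.23, none called.

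**Figure D2:**
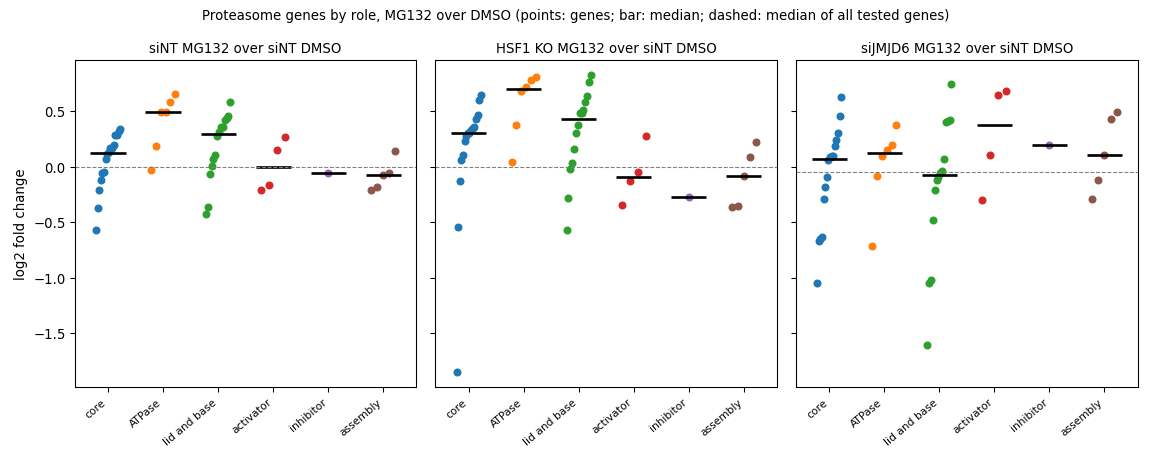
Log2 fold change of each tested proteasome gene (points) over siNT cells in DMSO, by role, for siNT, HSF1 KO and siJMJD6 cells under MG132, where bars are medians and the dashed line is the median of all tested genes. The ATPase medians were 0.49 in siNT, 0.70 in HSF1 KO and 0.12 in siJMJD6 cells, and all 3 panels share the DMSO libraries.

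JMJD6 knockdown was compared with siNT under MG132. The core subunit PSMB5 fell, and the activators PSME2 and PSME4 rose. These were 2 higher and 1 lower of 46 genes, at backgrounds of 6.22% and 7.35%, so that 6.52% of proteasome genes were called beside 13.6% of all genes. PSMB5 had 818 and 499.9 normalised counts in siJMJD6 libraries, against 1220.5 and 1209.7 in siNT libraries (−0.93 ± 0.25, adjusted p = 0.0286). PSME2, the beta subunit of PA28, had 566 and 489.8 in siJMJD6 libraries, against 234 and 345 in siNT libraries (0.89 ± 0.25, adjusted p = 0.0340). PSME4 had 429 and 383 in siJMJD6 libraries, against 245 and 218 in siNT libraries (0.81 ± 0.23, adjusted p = 0.0382). The groups did not overlap in any of the 3 genes. Over all 46, both siJMJD6 libraries lay above both siNT libraries in 7 genes (15.2%, beside 24.9% of all genes) and below in 11 (23.9%, beside 28.1%).

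The remaining panel genes under siJMJD6 and MG132 were not called. PSMA3 had −0.83 ± 0.27 (adjusted p = 0.0613), PSMD11 −1.03 ± 0.35 (adjusted p = 0.0710), PSMC4 −0.34 ± 0.32 and POMP 0.36 ± 0.25. By role, the medians were −0.37 over the ATPases, −0.47 over the lid and base, −0.098 over the core, 0.38 over the activators and 0.32 over the assembly factors, beside −0.050 over all tested genes. All 6 ATPases had a value below 0, as had 11 of the 14 lid and base genes, and none of these was called. The median over all tested genes was also below 0. The 2 siJMJD6 libraries lay far apart in some genes, of which PSMC5 is named after its values were seen. PSMD11 had 114 and 282 and PSMC5 706 and 332 normalised counts in siJMJD6 libraries 1 and 2.

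Each of the 3 calls was lost in some of the 8 fits that each left out a library, in most of them with a fold change close to the reported one. PSMB5 had −0.57 without siJMJD6 library 2 (adjusted p = 0.112) and −1.28 without siJMJD6 library 1. Its call was also lost without either siNT MG132 library or either HSF1 KO library (adjusted p 0.0558 to 0.134), where the fold change was −0.92 to −0.93. PSME2 was not called without siNT MG132 library 1, siJMJD6 library 1 or either HSF1 KO library (0.0635 to 0.248), and its fold change over the 8 fits was 0.61 to 1.17. PSME4 was called without siJMJD6 library 2 and in no other fit (0.0567 to 0.150), with a fold change of 0.72 to 0.89 over the 8. The siJMJD6 libraries differed in PSMD11, which had −1.68 without library 2 (adjusted p = 0.00276) and −0.38 without library 1 (adjusted p = 0.433). PSMA3 had −1.03 without library 2 (adjusted p = 0.0419) and −0.64 without library 1 (adjusted p = 0.204). More proteasome genes were called lower without library 2, but the share over all genes in that fit is not given here.

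Against DMSO, siJMJD6 cells under MG132 had 1 gene higher and 1 lower of 46 (background 6.20% and 7.18%, 13.4% in either direction). PSMD2 had 636 and 744 normalised counts in siJMJD6 MG132 libraries, against 392 and 429.7 in siNT DMSO libraries (0.74 ± 0.22, adjusted p = 0.0431). PSMA3 had 109 and 142 in siJMJD6 MG132 libraries, against 224 and 295 in siNT DMSO libraries (−1.05 ± 0.27, adjusted p = 0.0246). The groups overlapped in neither gene. The PSMD2 call was kept in 1 of 8 fits that each left out a library, the one without siJMJD6 library 1 (adjusted p 0.0503 to 0.215 in the others), with a fold change of 0.63 to 0.86 over the 8. The PSMA3 call was kept in 3, those without siNT MG132 library 1 or 2 or siJMJD6 library 2 (0.0512 to 0.178 in the others), with −1.24 to −0.85. PSMB5 had −0.64 ± 0.25, PSMD11 −1.02 ± 0.35, PSMC4 0.15 ± 0.32, PSME4 0.64 ± 0.23 and POMP 0.50 ± 0.25, none called. The first 2 rest on which siJMJD6 library is used. PSMB5 had −0.99 without library 1 (adjusted p = 0.0195) and −0.28 without library 2 (adjusted p = 0.422), whereas PSMD11 had −0.38 without library 1 (adjusted p = 0.451) and −1.67 without library 2 (adjusted p = 0.00211). PSMC4 had 0.43 without library 1 and −0.12 without library 2. Both siJMJD6 libraries lay above both DMSO libraries in 11 genes (23.9%, beside 26.8% of all genes) and below in 9 (19.6%, beside 30.6%).

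HSF1 KO and siJMJD6 cells under MG132, which differ in genotype and in the labelled siRNA, were also compared with each other. In HSF1 KO cells 5 genes were higher and 3 lower, 17.4% of the 46 beside 20.8% of all tested genes (background 11.1% higher and 9.69% lower). PSMA3 had 351 and 362 normalised counts in HSF1 KO libraries, against 109 and 142 in siJMJD6 libraries (1.51 ± 0.27, adjusted p = 0.00256), and stayed called in all 8 fits that each left out a library. The beta subunit PSMB4 (1.26 ± 0.30), the ATPase PSMC2 (1.52 ± 0.39), PSMB5 (0.94 ± 0.25) and PSMD11 (1.19 ± 0.35) were also higher, with adjusted p from 0.0111 to 0.0305. PSME4 had 202 and 205 in HSF1 KO libraries, against 429 and 383 in siJMJD6 libraries (−0.99 ± 0.23, adjusted p = 0.0102). PSME2 (−0.81 ± 0.25, adjusted p = 0.0351) and PSMB8 (−2.10 ± 0.69, adjusted p = 0.0457) were lower as well. PSMC4 had 0.57 ± 0.32 and POMP −0.27 ± 0.25, neither called. Both HSF1 KO libraries lay above both siJMJD6 libraries in 22 genes (47.8%, beside 32.4% of all genes) and below in 8 (17.4%, beside 28.7%).

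Of these 8 calls PSMA3 alone was kept in every fit that left out a library. Without HSF1 KO library A all the other calls were lost, and without library B all the others but PSMB8. Where an HSF1 KO library was left out, the fold changes of the lost calls other than PSMB8 stayed close to those reported. Without A they were 1.23 for PSMB4, 1.47 for PSMC2, 0.93 for PSMB5, 1.27 for PSMD11, −0.98 for PSME4 and −0.81 for PSME2. PSMB8 had −0.73 without library A and −3.46 without library B. Without siJMJD6 library 1 PSMB4 had 0.89 and PSMD11 0.54, and without siJMJD6 library 2 PSMB5 had 0.59 and PSMC2 1.17, none called. The siJMJD6 libraries of this comparison are those of the one against siNT.

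Heat shock alone, in siNT cells against basal siNT cells, gave proteasome effects between −0.19 and 0.42. By limma 0 of 46 were called (background 2.86% higher, 1.23% lower and 4.09% in either direction), and 4 were higher and 0 lower at an unadjusted p under 0.05 (8.37% and 6.70% of all genes). The median effect was −0.022, beside −0.0020 over all tested genes. All 3 heat shock libraries lay above all 3 basal libraries in 8 genes (17.4%, beside 10.5% of all genes) and below in 2 (4.35%, beside 9.21%). PSME1, the alpha subunit of PA28, had 218, 187 and 168 normalised counts in heat shock libraries, against 150.03, 149 and 146 in basal libraries (0.35 ± 0.12, adjusted p = 0.122). The core subunit PSMB3 had 92.8, 80.5 and 86.5 in heat shock libraries, against 67.8, 57.0 and 68.5 in basal libraries (0.42 ± 0.16, adjusted p = 0.159). In both genes the groups did not overlap. PSMA3 had −0.19 ± 0.11, PSMB5 −0.056 ± 0.08, PSMC4 −0.029 ± 0.14, PSMD11 0.10 ± 0.10, PSME4 −0.12 ± 0.10 and POMP −0.043 ± 0.084.

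JMJD6 knockdown after heat shock gave many more calls. Some genes of the core, the ATPases and the lid and base fell. Those that rose were 2 activators, PSMB2 of the core, PSMD2 of the base and the assembly factor PSMG3. In siJMJD6 cells 5 genes were higher and 14 lower than in siNT cells after heat shock, at backgrounds of 21.4% and 24.9%. In all 41.3% of the proteasome genes were called beside 46.4% of all tested genes, so the share of calls is near the background. All 3 siJMJD6 libraries lay below all 3 siNT libraries in 21 of 46 genes (45.7%, beside 28.8% of all genes), and above in 6 (13.0%, beside 25.2%). With TMM scaling of the libraries the split was 8 higher and 13 lower. The 5 higher genes and the 10 lower genes with the smallest adjusted p kept their calls in all 9 fits that each left out a library.

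The lid and base held the deepest fall, with 1 gene higher and 7 lower of 14 (57.1% called, beside 46.4% of all tested genes). PSMD8, a lid subunit, had 259, 249.9 and 241 normalised counts in siJMJD6 libraries, against 809, 804 and 822 in siNT heat shock libraries. This is 69.1% lower (−1.70 ± 0.084, adjusted p = 4.15e-18), and the basal libraries had 779.7, 854 and 780.2. The 3 siJMJD6 libraries lay close together and far below the 6 siNT libraries. PSMD5, a base chaperone at low level, had 5.42, 17.0 and 13.7 in siJMJD6 libraries, against 28.1, 26.6 and 26.2 in siNT heat shock libraries (−1.23 ± 0.31, adjusted p = 0.00139), and the value was −0.78 without siJMJD6 library 1. The lid subunit PSMD11 had 271, 256 and 287 in siJMJD6 libraries, against 374, 428 and 422 in siNT heat shock libraries (−0.59 ± 0.10, adjusted p = 6.28e-06). The lid subunits PSMD3 (−0.44 ± 0.077) and PSMD13 (−0.36 ± 0.092) fell too, with adjusted p of 1.41e-05 and 0.00183. PSMD2, which docks ubiquitin shuttles on the base, was higher, with 645, 673 and 680.3 in siJMJD6 libraries, against 561, 529 and 484 in siNT heat shock libraries (0.35 ± 0.089, adjusted p = 0.00166).

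Of the 6 ATPases 2 fell and 0 rose (33.3% called, beside 46.4% of all tested genes). PSMC5 had 235, 214 and 249 normalised counts in siJMJD6 libraries, against 442, 442 and 529 in siNT heat shock libraries (−1.01 ± 0.10, adjusted p = 1.98e-10), a level 50.5% lower. PSMC4 had 113, 118 and 98.0 in siJMJD6 libraries, against 125, 98.8 and 109 in siNT heat shock libraries (−0.014 ± 0.14), and its groups overlapped.

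In the core 1 gene rose and 5 of 16 fell (37.5% called, beside 46.4% of all tested genes). Among the 5 were 2 of the 3 active-site subunits. PSMB5 had 735, 617 and 718 normalised counts in siJMJD6 libraries, against 1139.95, 1100.2 and 1078 in siNT heat shock libraries, 37.7% lower (−0.68 ± 0.08, adjusted p = 9.99e-09). PSMB6 had 229, 197 and 219.5 in siJMJD6 libraries, against 351, 383 and 354 in siNT heat shock libraries, 40.7% lower (−0.75 ± 0.10, adjusted p = 9.11e-08). PSMB7 had 1577, 1586 and 1659.5 in siJMJD6 libraries, against 1375, 1303 and 1631 in siNT heat shock libraries (0.17 ± 0.081, adjusted p = 0.0869), and its groups overlapped. The alpha subunit PSMA1 (−0.55 ± 0.11, adjusted p = 7.2e-05) and the beta subunit PSMB4 (−0.44 ± 0.10, adjusted p = 0.000404) fell. PSMB2 rose by 0.42 ± 0.12 (adjusted p = 0.00438), with 210.2, 187 and 202 in siJMJD6 libraries, against 168, 147 and 135 in siNT heat shock libraries. PSMA3 had −0.20 ± 0.11 (adjusted p = 0.148).

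The active-site and immunoproteasome subunits were followed through the remaining groups. PSMB8 had 24.4, 43.5 and 29.4 normalised counts in siJMJD6 heat shock libraries, against 34.8, 30.9 and 47.6 in siNT heat shock libraries and 35.2, 40.9 and 45.2 in basal libraries. PSMB10 had 257, 294 and 272 in siJMJD6 heat shock libraries, against 224, 258 and 289 in siNT heat shock libraries and 263, 302 and 265 in basal libraries. Neither was called in the heat shock table. In basal libraries PSMB5 had 1156, 1094 and 1201, PSMB6 357, 344 and 340.3 and PSMB7 1529, 1616 and 1342. In the MG132 table PSMB6 had 254 and 288 in siJMJD6, 289.9 and 343 in HSF1 KO, 271 and 289 in siNT MG132 and 263 and 248 in DMSO libraries. PSMB7 had 1878 and 1338 in siJMJD6, 1388 and 1739 in HSF1 KO, 1217 and 1419.6 in siNT MG132 and 1163 and 1142 in DMSO libraries. PSMB10 had 484 and 296 in siJMJD6, 278 and 224 in HSF1 KO, 307 and 256 in siNT MG132 and 457 and 291 in DMSO libraries. None of these 3 genes was called in the MG132 table. PSMB5 had 1234 and 1221 in HSF1 KO and 1051 and 941 in DMSO libraries, and PSMB8 had 27.6 and 53.2 in siJMJD6 MG132 and 25.5 and 41.0 in DMSO libraries.

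Of the 4 activators 2 rose and 0 fell (50% called). Of the 5 assembly factors of the core 1 rose and 0 fell (20% called). Both shares stand beside 46.4% of all tested genes. The base chaperones PSMD5 and PSMD10, counted with the lid and base, fell. PSMD9, also a base chaperone and named here after its values were seen, had 0.20 ± 0.086 and was not called. It had 557 to 607 normalised counts in siJMJD6 libraries, against 483 to 527 in siNT heat shock libraries. PSME2 had 406, 478 and 456 normalised counts in siJMJD6 libraries, against 297, 334 and 365 in siNT heat shock libraries (0.43 ± 0.10, adjusted p = 0.000824). PSME4 had 378, 360.1 and 349 in siJMJD6 libraries, against 296, 243 and 301 in siNT heat shock libraries (0.38 ± 0.10, adjusted p = 0.00222). PSMG3, which helps to build the alpha ring, rose by 0.39 ± 0.091 (adjusted p = 0.000591), with 449, 456 and 498 in siJMJD6 libraries, against 355, 355 and 357 in siNT heat shock libraries. POMP had 558, 554 and 635 in siJMJD6 libraries, against 644, 589 and 601 in siNT heat shock libraries (−0.073 ± 0.084). Beyond the rule for named genes, PSMA5, PSMC2, PSMD10 and PSMD12 complete the 14 lower calls, with values from −0.38 to −0.54, and are named after their values were seen. So is PSMC3IP, which is no subunit and rose by 0.99 ± 0.26. The plot by library shows 6 of the genes described.

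**Figure D3:**
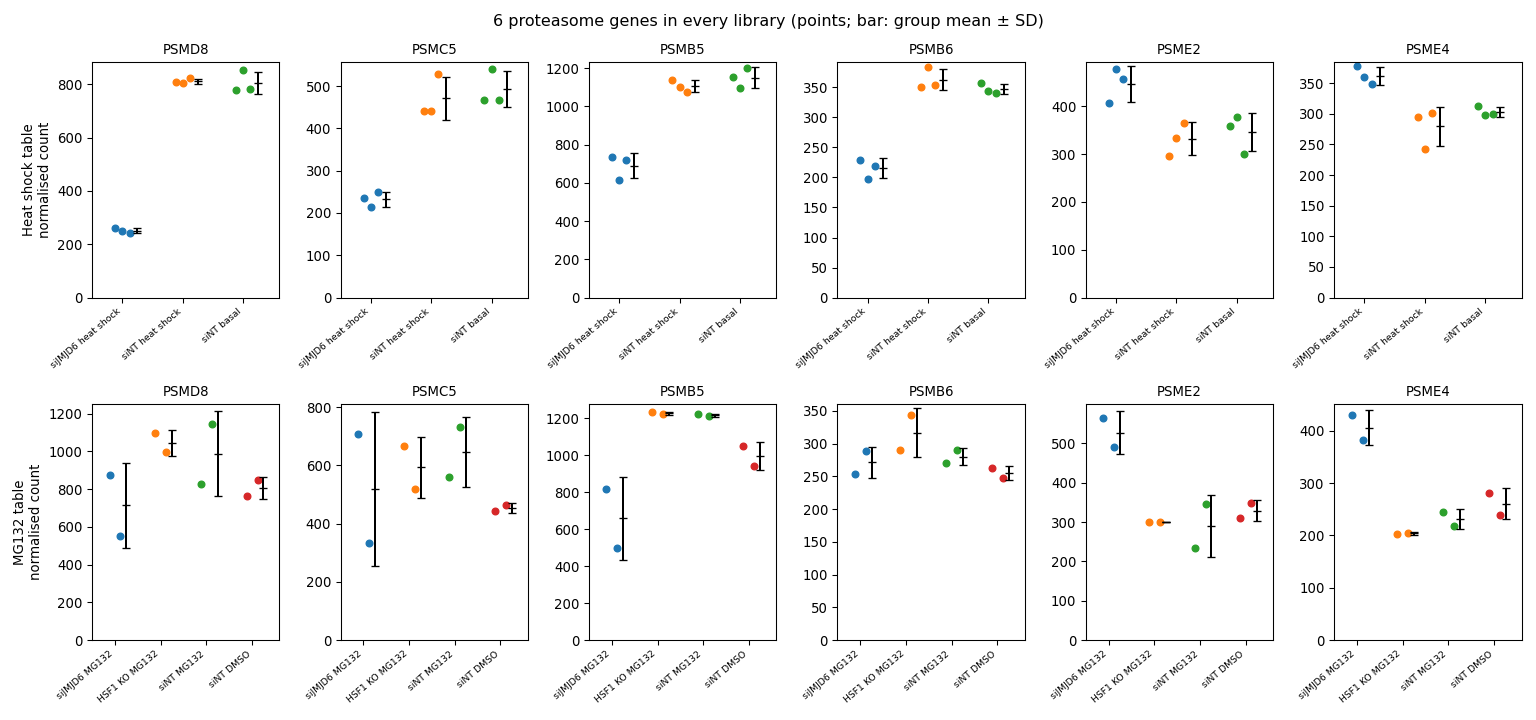
Normalised counts of 6 proteasome genes in every library (points), with group mean ± SD, in the heat shock table (top) and the MG132 table (bottom). In the top row the siJMJD6 libraries lie below every siNT library for PSMD8, PSMC5, PSMB5 and PSMB6 and above for PSME2 and PSME4, and in the bottom row the siJMJD6 libraries stand apart from all others for PSMB5, PSME2 and PSME4.

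Against basal siNT cells, siJMJD6 cells after heat shock had 6 genes higher and 16 lower of 46 (background 22.2% and 24.2%), 47.8% called beside 46.3% of all genes. The siJMJD6 libraries are shared with the comparison above. PSMD8 (−1.68 ± 0.084), PSMC5 (−1.08 ± 0.10), PSMB5 (−0.74 ± 0.08), PSMB6 (−0.69 ± 0.10), PSMD3 (−0.47 ± 0.077), PSMD11 (−0.49 ± 0.10), PSMD5 (−1.41 ± 0.31), PSMD13 (−0.41 ± 0.092), PSMA1 (−0.48 ± 0.11) and PSMB4 (−0.43 ± 0.10) led the lower calls, with adjusted p from 5.96e-18 to 0.000508. PSMA3 was also called lower here (−0.39 ± 0.11, adjusted p = 0.00530). The higher calls were PSMD2 (0.55 ± 0.089), PSMG3 (0.53 ± 0.091), PSME2 (0.37 ± 0.10), PSMB2 (0.39 ± 0.12), PSMC1 (0.33 ± 0.13) and PSME4 (0.25 ± 0.10), with adjusted p from 4.42e-06 to 0.0359. PSMC1 was not called without siNT basal library 1 or 3 or siJMJD6 library 1 (adjusted p 0.0643 to 0.313, with values down to 0.17). PSME4 lost its call with each of the 3 basal and 3 siJMJD6 libraries in turn (0.0524 to 0.116), with values of 0.22 to 0.28. PSMC4 (−0.044 ± 0.14) and POMP (−0.12 ± 0.084) were not called. All 3 siJMJD6 libraries lay above all 3 basal libraries in 7 genes (15.2%, beside 26.1% of all genes) and below in 16 (34.8%, beside 27.4%).

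The sum over the proteasome genes gives their share of all normalised counts. In the heat shock table it was 0.879% to 0.881% in siJMJD6 libraries, 0.938% to 0.971% in siNT heat shock libraries and 0.953% to 0.980% in basal libraries. The lid and base genes summed to 4435 to 4556 in siJMJD6 libraries, against 5376 to 5469 in siNT heat shock libraries. The activators summed to 1079.7 to 1126 in siJMJD6 libraries, against 915 to 956 in siNT heat shock libraries. In the MG132 table the proteasome share was 0.866% and 0.925% in siJMJD6 libraries, 1.02% and 1.03% in HSF1 KO libraries, 0.943% and 0.957% in siNT MG132 libraries and 0.905% and 0.919% in DMSO libraries. Genes of high level weigh most in these sums, which carry no test.

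The 2 experiments share no library, so the knockdown effects can be set side by side, although the tables were normalised separately. Of the 46 genes 37 had the same sign in both (80.4%), beside 74.0% of the 9379 genes tested in both tables. Across genes, which are not independent replicates, Pearson's r was 0.63 and Spearman's rho 0.66, beside 0.70 and 0.66 over all genes. PSMB5, PSME2 and PSME4, the 3 genes called under MG132, were called in the same direction after heat shock. So were 1063 of the 1291 genes called under MG132 among all genes tested in both tables. PSMD8 had −0.49 ± 0.26 under MG132 and −1.70 ± 0.084 after heat shock. PSMC5 had −0.40 ± 0.31 under MG132 and −1.01 ± 0.10 after heat shock, and PSMB6 had −0.049 ± 0.23 and −0.75 ± 0.10 in the same order. Whether these effects differ between the stresses was not tested.

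**Figure D4:**
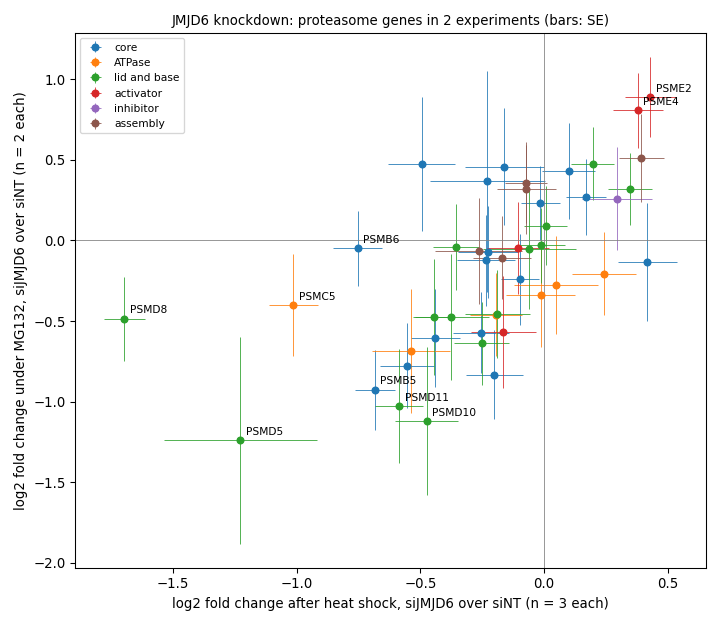
Log2 fold change of each tested proteasome gene, siJMJD6 over siNT, after heat shock (horizontal) and under MG132 (vertical), with SE bars and colours for roles. Of 46 genes 37 lie in the quadrants where both values have 1 sign, and PSMD8, PSMC5 and PSMB6 lie farther from 0 on the horizontal axis.

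Partners of the proteasome were described from a list of 40 genes, of which 38 were tested. Under MG132 in siNT cells 2 rose and 0 fell (5.26%, beside 0.266% of all genes). Among them was ZFAND2A, a zinc finger protein that binds the proteasome under stress, with 491 and 398 normalised counts in MG132 libraries, against 56.8 and 45.8 in DMSO libraries (3.09 ± 0.33, adjusted p = 0.000455). In HSF1 KO cells under MG132, set against siNT MG132, 0 rose and 2 fell (5.26%, beside 1.28% of all genes), the polyubiquitin gene UBB (−1.41 ± 0.25) and ZFAND2A (−1.54 ± 0.33), while NFE2L1 had −0.10 ± 0.25. Set against DMSO, HSF1 KO cells had 2 higher and 0 lower (5.26%, beside 0.931%), ZFAND2A (1.55 ± 0.33) and the p97 cofactor PLAA (1.33 ± 0.29), and NFE2L1 had 0.073 ± 0.25.

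With siJMJD6 under MG132, 1 of the 38 partners rose and 7 fell (21.1%, beside 13.6% of all genes). The proteasome-bound ubiquitin ligase UBE3C had 63.9 and 61.2 normalised counts in siJMJD6 libraries, against 309.9 and 236 in siNT libraries (−2.09 ± 0.28, adjusted p = 0.000645). ZFAND2A (−1.44 ± 0.33) and the scaffold ECPAS, listed under its older symbol KIAA0368 (−1.34 ± 0.33), fell as well, and NFE2L1 had 0.44 ± 0.25. Against DMSO 5 rose and 4 fell (23.7%, beside 13.4% of all genes), led by UBE3C (−1.77 ± 0.28), PLAA (1.46 ± 0.29), ZFAND2A (1.65 ± 0.33) and UBB (1.22 ± 0.25), and NFE2L1 had 0.60 ± 0.25. In HSF1 KO cells against siJMJD6 cells 4 were higher and 2 lower (15.8%, beside 20.8% of all genes), led by UBB (−1.96 ± 0.25), UBE3C (1.92 ± 0.28) and the deubiquitinase UCHL5 (1.77 ± 0.33), and NFE2L1 had −0.53 ± 0.25.

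After heat shock in siNT cells 3 partners rose and 0 fell (7.89%, beside 4.09% of all genes), among them ZFAND2A (1.71 ± 0.16) and UBB (0.49 ± 0.071), and NFE2L1 had −0.12 ± 0.13. With siJMJD6 after heat shock 7 of 38 rose and 15 fell (57.9%, beside 46.4% of all genes). UBE3C had 79.4, 64.0 and 91.1 normalised counts in siJMJD6 libraries, against 294, 301 and 328 in siNT heat shock libraries (−1.97 ± 0.12). KIAA0368 (ECPAS) fell by 1.45 ± 0.11. PITHD1, which carries the domain of the proteasome-bound protein TXNL1, rose by 2.10 ± 0.18, with 189.95, 204 and 209 in siJMJD6 libraries, against 31.8, 56.0 and 54.6 in siNT heat shock libraries. The transcription factor gene NFE2L1 rose by 0.67 ± 0.13 (adjusted p = 3.81e-05), with 229, 219.8 and 179 in siJMJD6 libraries, against 119.7, 135 and 137 in siNT heat shock libraries. The 2 cap subunits whose names the rule does not match, ADRM1 (0.28 ± 0.10) and SEM1, listed as SHFM1 (0.41 ± 0.10), rose and are named after their values were seen. Against basal cells 9 rose and 15 fell (63.2%, beside 46.3% of all genes), led by UBE3C (−2.08 ± 0.12), KIAA0368 (−1.75 ± 0.11), PITHD1 (1.92 ± 0.18) and UBB (0.67 ± 0.071), and NFE2L1 rose by 0.55 ± 0.13.

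Tags at the 3' end can be shared between neighbours or copies. In GENCODE v29, 7 of the 47 genes overlap a gene on the opposite strand within their last 500 bases, among them PSMA3, PSMC1, PSMC2 and PSME1. Another gene overlaps on the same strand for 7, among them PSMA1, PSMD9, PSMB10 and PSME2. Pseudogenes are named after 10 of them, 30 in all, with 13 for PSMC1 and 1 each for PSMD8 and PSMB7. PSMB5, PSMC5, PSMB4, PSMB6, PSMD11 and PSME4 have none of these. The sources used here do not say how strand and shared reads were counted, so values of the overlapping genes are uncertain.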

How the data were processed

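RNA of 17 PC3M libraries was extracted on Qiagen RNeasy columns and made into QuantSeq 3' tag libraries, per the labels' protocols. The submitters' processing notes name FastQC 0.11.2, STAR 2.6.0, HTSeq with no version, and hg38; the sources used here do not give the order of steps, the annotation or the scaling. The deposited values are the authors' normalised counts, treated as a signal that is not a raw count, in 2 tables normalised separately. Values of 10 or more in at least 2 (MG132) or 3 (heat shock) libraries were required. The logarithm log2(value + 1) was fitted with limma 3.58.1 in R 4.3.3 over all groups of a table, with a variance trend, and p-values were adjusted over all tested genes of a comparison (called at 0.05). On data simulated for siNT MG132 over DMSO, log2 changes of 1 or 2 in size were put into a small share of genes. The fit called a minority of these changes, and smaller changes were not simulated. The other MG132 comparisons were not simulated, and a gene not called in the MG132 table may still differ. Depth was estimated from steps between low values and limits precision for low genes.

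The text names the panel PSMA3, PSMB5, PSMC4, PSMD11, PSME4 and POMP in every comparison, every called gene where 12 or fewer were called in a direction and otherwise the 10 with the smallest adjusted p, the 2 genes with the smallest unadjusted p where none was called, the active-site and immunoproteasome subunits in every group, and of the partners NFE2L1 and up to 4 called genes. Some partner and marker genes that this rule or the lists would name are not reported here. The members, lists and tests were chosen with earlier results of these data known. Alternatives were other pseudocounts (0.5 and 10), no filter, TMM or quantile scaling, no variance trend, the 2 groups alone, a replicate block, all names that match the rule, and leaving out each library. Promoter and motif searches used Python 3.11.15.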

Additional observations from a re-analysis of the deposited data

How the results depend on the processing

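Counts of called proteasome genes in the MG132 table were the most dependent on settings. For siJMJD6 over siNT under MG132 (2 higher, 1 lower) the counts were 1 and 0 with no filter on low values, 0 and 0 with no variance trend, and 0 and 0 with only the 2 groups compared. For HSF1 KO over siJMJD6 (5 higher, 3 lower) they were 2 and 1 with no filter and 2 and 1 with no variance trend. For siJMJD6 under MG132 over DMSO (1 higher, 1 lower) they were 0 and 0 with no filter, with no variance trend and with only the 2 groups compared, and 0 and 2 with quantile scaling. After heat shock, siJMJD6 over siNT gave 8 higher with TMM or quantile scaling in place of 5, and siJMJD6 over basal gave 3 higher with no variance trend in place of 6. The cause was not tested. The alternative counts here and below stand without the share of all genes called in the same fit. They show dependence on settings only. Leaving out 1 library gave 0 to 2 higher and 0 to 5 lower for siJMJD6 over siNT under MG132, 1 to 5 higher and 0 to 4 lower for HSF1 KO over siJMJD6, and 0 to 1 higher and 0 to 5 lower for siJMJD6 under MG132 over DMSO. It gave 0 to 1 lower for HSF1 KO over siNT and for HSF1 KO over DMSO. The median over the 46 genes for siJMJD6 under MG132 over DMSO (0.078) was −0.039 with quantile scaling and −0.13 without siJMJD6 library 1. Same-numbered libraries correlated at 0.045 to 0.37 (6 pairs, MG132) and −0.035 to 0.094 (9 pairs, heat shock) in their deviations from group means. In the MG132 table each value stands for both replicate numbers, since the deviations of 2 libraries mirror each other. The values were 0.37 for siNT DMSO with siNT MG132, 0.32 for siNT DMSO with siJMJD6 MG132 and 0.045 for siNT MG132 with siJMJD6 MG132. Whether the numbers pair libraries was not tested, and the main fits did not pair them. With the replicate number as a block, and without the HSF1 KO libraries, which carry none, the lower counts were 5 for siJMJD6 over siNT under MG132 and 3 for siJMJD6 under MG132 over DMSO. Of 1507 alternative values of named genes 1386 kept direction and side of the threshold, 93 were no longer called and 9 were newly called. A further 19 changed sign, all of genes called in neither fit and reported at 0.21 or less in size. Depth limits PSMB8, PSMB9 and PSMD5, whose normalised counts were low.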
